A study of Mus musculus with 2 samples.

Results

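The genes of the cadherins and protocadherins were compared between mouse E14 embryonic stem cells (ESCs) and E14-Sox2 TA/WT cells, called TA/WT cells in the following. Members were all rows of the gene expression table with the symbol Cdh followed by a number, or with a symbol that starts with Pcdh. This gave 93 of 24532 genes, of which 5 were type I classical cadherins, 13 type II classical cadherins, 5 other Cdh genes, 14 genes of the Pcdha cluster, 22 of the Pcdhb cluster, 22 of the Pcdhg cluster, 4 delta-1, 5 delta-2 and 3 other protocadherins. Each genotype had 1 library. The E14 library was labelled WT, and the other came from an E14 clone in which 1 allele of Sox2 carried the T258A change, which removes a threonine that can carry O-GlcNAc, introduced with CRISPR/Cas9. ESCs of this line were kept in serum with leukemia inhibitory factor, and the clone had also been kept with 2i, a pair of Mek and Gsk3 inhibitors, until some passages ahead of its use. The effect of the allele, of the clone and of its past culture cannot be told apart, and no difference has a replicate check.

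Cadherins are calcium-dependent adhesion molecules of the cell membrane. Classical cadherins bind the same or a similar cadherin on the neighbouring cell and are tied to actin through beta-catenin and alpha-catenin, and E-cadherin, encoded by Cdh1, holds ESC colonies together. Protocadherins lack these catenin-binding regions. The Pcdha, Pcdhb and Pcdhg genes lie in tandem on chromosome 18, each with its own promoter and a large first exon, and they are best known in neurons, where a changing choice of promoters gives single cells different surface identities.

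Of the 93 genes, 41 had at least 20 reads in at least 1 library, 33 had fewer and 19 had no read in either. Of the 41, 12 were more than 2-fold higher and 2 were more than 2-fold lower in the mutant, by the ratio of TPM (a transcript level scaled to transcript length and library size). The background over all 15105 genes past the same filter was 6.88% higher and 12.9% lower. Genes that pass through 1 library alone are those read unequally. Of the 41, 5 passed through TA/WT cells alone (Cdh9, Cdh13, Pcdh7, Pcdh18 and Pcdha12) and 1 through E14 alone (Pcdhac2). For these genes the filter itself favours a large ratio. Of the 35 genes with at least 20 reads in both libraries, 7 were higher (20%, against 6.03% of 13764 genes) and 1 was lower (2.86%, against 7.91%). Their median log2 ratio was 0.14, beside 0.05 over the 13764 genes. Of these 35, 22 were Pcdhg genes, whose transcripts share exons, and 2 of the 22 were higher. The background was larger among genes with few reads. Among genes with 20 to fewer than 500 reads in the library where they had more, 12.0% of 5012 were higher and 29.9% were lower, and of the 35 members in this range 9 were higher (25.7%) and 2 were lower (5.71%). With a stricter filter, a TPM of at least 10 in a library, 5 members remained, of which 3 were higher and none was lower, where 4.17% and 4.07% of 9094 genes were. How much such shares vary between cultures of 1 genotype cannot be read from these libraries. Intervals beside log2 ratios are 95% intervals for counting error only.

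Total reads were 60263536 in E14 and 44609228 in TA/WT cells. Sox2 itself had 28936 and 14270 reads (log2 ratio -0.44, interval -0.47 to -0.41). All 7 ESC markers examined were expressed in both libraries, with Nanog alone more than 2-fold lower. The median log2 TPM ratio over 13729 genes with a TPM of at least 1 was 0.03. With FPKM, which scales to length and fragments, it was -0.11, so log2 FPKM ratios lie 0.14 lower throughout. The medians per chromosome were 0.26 on chromosome 8 (743 genes), -0.20 on chromosome 15 (561 genes) and 0.14 on chromosome 18 (333 genes).

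The type I classical cadherins typically carry a His-Ala-Val motif in their outermost repeat and anchor strong adherens junctions. In this group 4 of 5 genes were more than 2-fold higher and none was lower. The background over the 15105 genes past the 20-read filter was 6.88% higher and 12.9% lower. With other scalings or the GC and length trend removed, 2 or 3 of the 5 were higher. Cdh1, the gene for E-cadherin, had the highest level of all members in both libraries, with 22469 reads (TPM 161) in E14 and 30354 reads (TPM 325) in TA/WT cells. The log2 ratio was 1.01 with an interval of 0.99 to 1.04, so Cdh1 lay at the 2-fold line, and it fell short of it with counts scaled by TMM (0.97) or by median-of-ratios size factors (0.99), with FPKM (0.87) and after removal of the dependence on transcript GC and length (0.90). Cdh3, which encodes P-cadherin and lies 46438 bases upstream of Cdh1 on chromosome 8, had 1328 reads (TPM 10.4) in E14 and 2182 reads (TPM 25.6) in TA/WT cells. Its log2 ratio of 1.29 (1.20 to 1.39) exceeded 1 in each of those settings, from 1.15 with FPKM to 1.27 with size factors. Relative to the median of chromosome 8, the log2 ratios were 0.76 for Cdh1 and 1.04 for Cdh3. The part of this chromosome-wide shift in the difference was not tested.

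Cdh2, the gene for N-cadherin, which takes over from E-cadherin when epithelial cells become mesenchymal or neural, differed most among the type I genes. It went from 173 reads (TPM 1.13) in E14 to 1165 reads (TPM 11.4) in TA/WT cells, a 10.1-fold difference (log2 ratio 3.33, 3.10 to 3.57). It thereby moved from the 20th to the 4th rank by TPM among the 41 genes. Cdh4, the gene for R-cadherin, was low, with 102 and 140 reads (TPM 0.515 and 1.10), and its log2 ratio of 1.09 (0.71 to 1.47) had an interval that reached below 2-fold and was 0.99 with TMM and 0.95 with FPKM. With either of these, only Cdh2 and Cdh3 of the type I genes were past 2-fold. Cdh15, the gene for the M-cadherin of muscle, had 105 and 97 reads (TPM 1.16 and 1.61, log2 ratio 0.47).

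The higher level of Cdh2 did not come with a lower level of Cdh1. Of the summed TPM of all 18 classical cadherin genes, Cdh1 made up 88.4% in E14 and 86.2% in TA/WT cells, Cdh3 5.73% and 6.80%, and Cdh2 0.621% and 3.03%. The sum itself was higher for the type I genes, at a TPM of 174 in E14 and 364 in TA/WT cells (log2 ratio 1.06, 1.04 to 1.09). Other cell types that express Cdh2 were looked for with marker lists. Of 6 neural markers with at least 20 reads, 3 were more than 2-fold higher (Sox1, Pax6 and Neurod1), and the summed TPM of the 7-gene list was 97.0 in E14 and 109 in TA/WT cells. Most of it was Tubb3, without which the sum was 19.6 and 43.6, and the median log2 ratio of the 6 markers was 1.10. Of 8 fibroblast markers, Col3a1 and Col1a2 were higher, Thy1 and Pdgfrb were lower, and Dcn, Lum and Postn had no read in either library, with summed TPM of 49.8 and 19.5 (9.75 and 8.07 without Thy1) and a median log2 ratio of 0.15. The 6 primitive endoderm markers all had lower TPM (summed TPM 43.7 and 16.4), and 4 of them were more than 2-fold lower. Among 6 endothelial markers Kdr was higher, Pecam1 was lower and Emcn had no read (summed TPM 113 and 53.5, and 10.7 and 9.39 without Pecam1). Of 4 muscle markers (summed TPM 23.2 and 12.5), 2 had at least 20 reads. Neither was higher, and Myog was lower, at 21 and 0 reads. Under the filter, Myf5 had 0 and 4 reads and Myod1 had 14 and 8. The part of such cells in the Cdh2 difference was not tested, and in bulk RNA more cells of a type and more RNA per cell cannot be told apart.

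**Figure D1:**
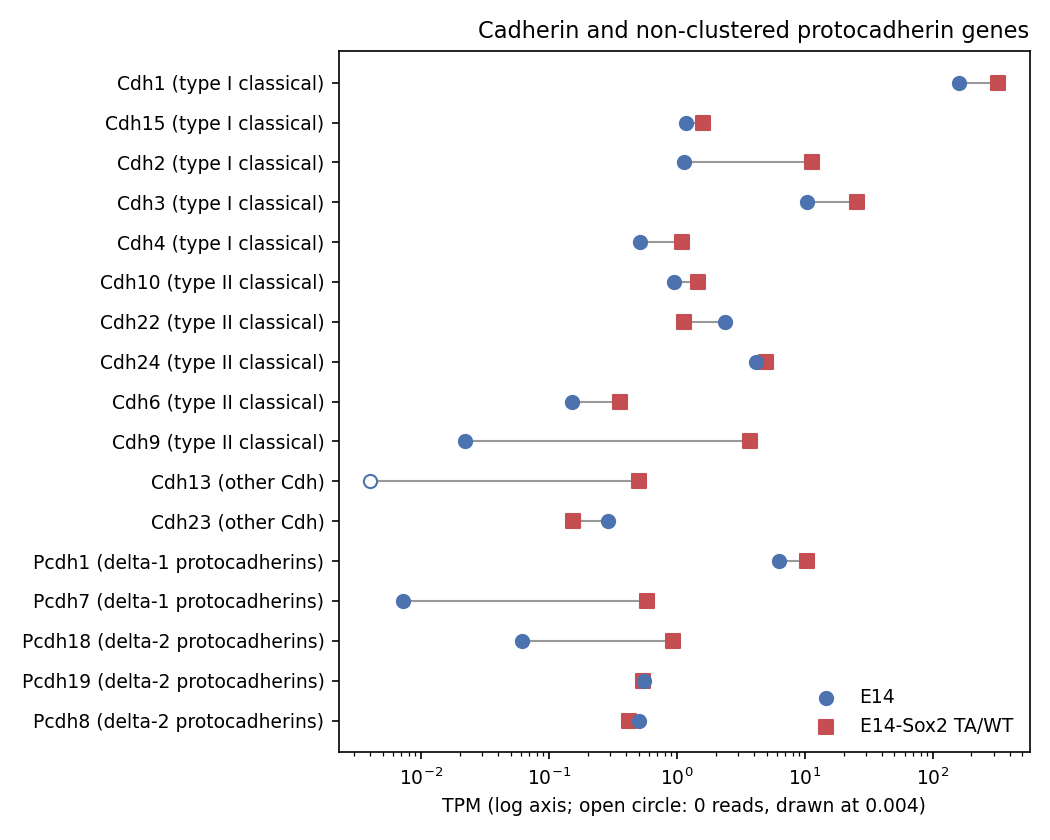
TPM (log axis) of the 17 cadherin and non-clustered protocadherin genes with at least 20 reads in a library, in E14 (circles) and TA/WT cells (squares), 1 library each. Lines join the values of a gene, and the open circle marks Cdh13, with 0 reads in E14. Cdh1 lies far to the right of all others in both libraries, and Cdh9, Cdh13, Pcdh7, Pcdh18 and Cdh2 have the longest lines.

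Type II classical cadherins lack the His-Ala-Val motif, and many of them sort neurons and mesenchymal cells into groups. Of the 13 genes, 5 had at least 20 reads, 6 had between 1 and 17, and 2 (Cdh19 and Cdh20) had none. Cdh9, best known from synapses, went from 2 reads (TPM 0.0219) in E14 to 226 reads (TPM 3.68) in TA/WT cells. The log2 ratio was 7.40 with a wide interval of 5.53 to 10.45, because it rests on 2 reads in E14. Cdh9 went from the 38th to the 9th rank by TPM among the 41 genes. It is among these 41 only through its TA/WT reads, so its low rank in E14 follows from the filter. Cdh6, a cadherin of the kidney and neural crest, had 39 and 62 reads (TPM 0.150 and 0.359, log2 ratio 1.26, 0.66 to 1.88), and its log2 ratio was 0.63 with the GC and length trend removed. Cdh22 was the only member of the 35 with at least 20 reads in both libraries that was more than 2-fold lower, with 268 reads (TPM 2.37) in E14 and 86 reads (TPM 1.13) in TA/WT cells (log2 ratio -1.07, -1.43 to -0.71, and -0.88 with the trend removed).

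Cdh24 was the most highly expressed type II gene in both libraries, with 358 and 288 reads (TPM 4.16 and 5.0, log2 ratio 0.26, 0.04 to 0.49). Cdh10 had 96 and 98 reads (TPM 0.954 and 1.46, log2 ratio 0.61). Of the genes under the filter, Cdh5, the VE-cadherin of endothelium, had 17 and 12 reads, Cdh11, a cadherin of mesenchyme, 3 and 15, Cdh18 11 and 4, and Cdh12 0 and 7. Cdh6, Cdh9, Cdh10, Cdh12 and Cdh18 all lie on chromosome 15, whose median was shifted down, and relative to it the log2 ratios were 1.46 for Cdh6, 7.60 for Cdh9 and 0.81 for Cdh10.

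From the promoter table of RefSeq (GRCm38.p6, 250 bases before to 50 after the start), 25 windows for 22 of the members were used. Cdh1, Cdh2, Cdh3, Cdh4 and Cdh13 had no entry. The windows of Cdh6 (chr15:13173626-13173925, minus strand) and Cdh9 (chr15:16728665-16728964, plus strand) are shown because both genes were higher and because, among 296 pairs of windows from different members, this pair had the longest run of identical bases in the same sense, 15 bases. It is printed in capitals.
Cdh6: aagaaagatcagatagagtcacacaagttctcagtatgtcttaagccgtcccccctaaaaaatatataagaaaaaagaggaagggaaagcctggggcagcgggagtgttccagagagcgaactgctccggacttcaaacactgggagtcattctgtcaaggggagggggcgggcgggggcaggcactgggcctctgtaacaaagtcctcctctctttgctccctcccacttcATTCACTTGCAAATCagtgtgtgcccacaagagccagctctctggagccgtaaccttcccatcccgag
Cdh9: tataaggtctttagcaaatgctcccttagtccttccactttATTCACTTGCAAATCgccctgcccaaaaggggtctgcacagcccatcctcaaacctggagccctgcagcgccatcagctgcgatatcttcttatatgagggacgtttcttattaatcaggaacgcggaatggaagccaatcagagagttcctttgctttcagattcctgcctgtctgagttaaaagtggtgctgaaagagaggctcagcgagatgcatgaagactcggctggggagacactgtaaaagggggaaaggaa
Cdh6 and Cdh9 are related type II genes, and the run was found after all windows had been compared, so it is a description of the sequence alone.

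Next, 3 short words were searched for on both strands of all 32851 windows: the Sox core in the forms CATTGT and CTTTGT, and the E-box CAGGTG that Snail and Zeb repressors bind. CATTGT was in 12.6% of all windows and in 0 of the 25 member windows. CTTTGT was in 18.7% of all and in 5 of the 25, and CAGGTG in 20.2% of all and in 5 of the 25, 3 of which belonged to alternative starts of Cdh7. Such a match is a description of letters, not of a bound site. Among the genes of these 25 member windows, the other higher genes were Pcdh7 (chr5:57717831-57718130, plus strand) and Pcdh18 (chr3:49757267-49757566, minus strand). Their windows and that of the lower gene Cdh22 (chr2:165234688-165234987, minus strand) are shown for comparison, with matches in capitals.
Pcdh7: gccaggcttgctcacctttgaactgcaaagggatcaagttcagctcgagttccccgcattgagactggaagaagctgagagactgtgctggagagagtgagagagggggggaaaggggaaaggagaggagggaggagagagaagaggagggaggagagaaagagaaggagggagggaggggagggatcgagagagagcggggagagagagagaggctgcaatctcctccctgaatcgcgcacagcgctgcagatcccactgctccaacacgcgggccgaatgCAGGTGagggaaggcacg
Pcdh18: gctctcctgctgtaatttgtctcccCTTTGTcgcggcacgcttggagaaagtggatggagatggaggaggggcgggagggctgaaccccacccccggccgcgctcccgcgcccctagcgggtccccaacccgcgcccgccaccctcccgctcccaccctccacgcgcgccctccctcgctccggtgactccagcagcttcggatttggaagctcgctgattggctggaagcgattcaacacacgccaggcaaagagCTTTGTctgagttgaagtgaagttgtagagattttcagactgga
Cdh22: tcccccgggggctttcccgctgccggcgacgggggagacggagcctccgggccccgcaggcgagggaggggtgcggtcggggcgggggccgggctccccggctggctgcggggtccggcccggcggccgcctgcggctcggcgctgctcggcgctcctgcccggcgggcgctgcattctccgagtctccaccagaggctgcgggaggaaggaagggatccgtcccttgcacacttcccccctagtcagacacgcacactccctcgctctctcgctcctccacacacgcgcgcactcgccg
Pcdh7 held 1 CAGGTG and Pcdh18 held 2 CTTTGT, the window of Cdh6 held 1 CTTTGT on the other strand (left in lower case above), and those of Cdh9 and Cdh22 held none of the words. The window of Cdh22 was rich in CpG (38 dinucleotides and 76.3% GC), that of Pcdh18 held 23, Pcdh7 11, Cdh6 8 and Cdh9 8, beside a median of 7 and quartiles of 3 and 20 over all windows.

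Among the other Cdh genes, Cdh13 encodes T-cadherin, which is held in the membrane by a lipid anchor and has no cytoplasmic tail. It had 0 reads in E14 and 42 reads (TPM 0.506) in TA/WT cells, where a floor of 3 reads in E14 gives a 20.9-fold difference and the counting interval a log2 ratio of at least 4.02. Cdh23, a tip-link protein of hair cells, had 103 and 37 reads (TPM 0.290 and 0.154, log2 ratio -0.91, -1.49 to -0.35), and it passed 2-fold with FPKM (-1.05) and without the GC and length trend (-1.06). Cdh16 and Cdh26 had at most 6 reads, and Cdh17, the cadherin of the intestine, had none.

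The non-clustered protocadherins are grouped by their cytoplasmic tails. Among the delta-1 genes, Pcdh1 was the most highly expressed, with 769 reads (TPM 6.25) in E14 and 854 reads (TPM 10.4) in TA/WT cells (log2 ratio 0.73, 0.59 to 0.87). Pcdh7 went from 3 reads (TPM 0.00724) to 100 reads (TPM 0.578), a log2 ratio of 6.32 (4.73 to 8.62). This ratio rests on 3 reads in E14 and was 5.59 with TMM. Pcdh9 had 19 and 12 reads, and Pcdh11x had 0 and 4. The 2 genes past the filter in this group thus both had higher TPM, but only Pcdh7 was past 2-fold.

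Among the delta-2 genes, Pcdh18 went from 10 reads (TPM 0.0614) in E14 to 101 reads (TPM 0.924) in TA/WT cells, a log2 ratio of 3.91 (2.97 to 5.01). Pcdh19, an X-linked gene known from a female-limited epilepsy, was level, with 179 and 117 reads (TPM 0.550 and 0.544, log2 ratio -0.02, -0.37 to 0.33), and was -0.51 with the GC and length trend removed. Pcdh8, the paraxial protocadherin of somites, had 65 and 36 reads (TPM 0.508 and 0.418, log2 ratio -0.28, -0.91 to 0.33). Pcdh17 and Pcdh10 had at most 12 reads. The remaining protocadherins Pcdh12, Pcdh15 and Pcdh20 had at most 6 reads in either library.

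**Figure D2:**
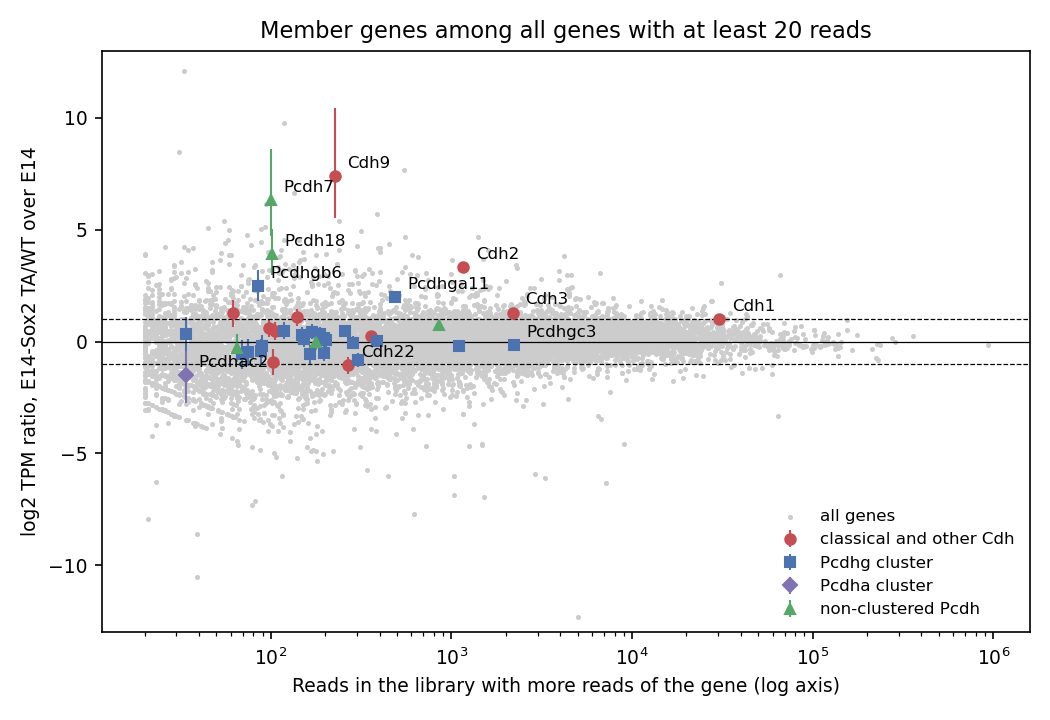
Log2 TPM ratio (E14-Sox2 TA/WT over E14) against the reads of each gene in the library where it had more (log axis), for genes with at least 20 reads and a read in both libraries, so that Cdh13 and Pcdha12 are not drawn. Grey dots are all genes, coloured symbols the members with 95% counting intervals, and dashed lines 2-fold. Cdh9, Pcdh7, Pcdh18 and Cdh2 stand highest among the members, and most Pcdhg genes lie between the dashed lines.

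The clustered protocadherins span 36930285 to 37188897 (Pcdha), 37264998 to 37521419 (Pcdhb) and 37661775 to 37841873 (Pcdhg) on chromosome 18 in GRCm38. The clusters differed widely in level. The Pcdhg genes had a summed TPM of 44.9 in E14 (6660 reads) and 47.0 in TA/WT cells (4668 reads), whereas the sums were 0.352 and 0.567 for Pcdha (61 and 66 reads) and 0.264 and 0.492 for Pcdhb (30 and 39 reads). Every one of the 22 Pcdhg genes had at least 20 reads in both libraries, beside 2 of 14 Pcdha genes and 0 of 22 Pcdhb genes with 20 reads in a library.

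The split of reads among Pcdhg and among Pcdha genes is uncertain. Each Pcdha or Pcdhg transcript joins its own first exon to 3 exons that are shared by the whole cluster. In the GENCODE M21 transcripts of GRCm38, 2860 bases of each Pcdha transcript were shared, or 48.6% to 54.9% of its length. For Pcdhg it was 2116 or 2119 bases, from 41.7% in Pcdhga12 to 45.5% in Pcdhgb2, except for Pcdhgb8, whose matched transcript was shorter and shared 375 bases. How the authors' counting placed reads from these exons is not stated. The sums over a cluster are firmer than the values of its genes only if each such read was counted once. Pcdhb genes have no such exons.

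The Pcdhg sum had a log2 ratio of 0.07 (0.01 to 0.12), and its sign changed with FPKM (-0.078) and without the GC and length trend (-0.0035). The median of the 22 genes was 0.04, with 12 above and 10 below 0. Pcdhgc3, one of the C-type genes that are read constitutively in many cells, was highest, with 2219 reads (TPM 15.03) in E14 and 1327 reads (TPM 13.4) in TA/WT cells, or 33.5% and 28.6% of the TPM of the cluster. Pcdhga12 followed, with 1108 and 656 reads (TPM 6.92 and 6.11). Both were nearly level, at log2 ratios of -0.16 (-0.26 to -0.07) and -0.18 (-0.32 to -0.04). All 3 C-type genes had lower TPM, and Pcdhgc4 (69 and 31 reads, TPM 0.433 and 0.292, log2 ratio -0.57, -1.23 to 0.06) and Pcdhgc5 (197 and 93 reads, TPM 1.33 and 0.931, -0.51, -0.88 to -0.15) had the lowest ratios of the 3.

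Only 2 of the 22 genes were more than 2-fold different, both higher. Among the 13764 genes with at least 20 reads in both libraries, 6.03% were more than 2-fold higher and 7.91% were lower. Pcdhga11 went from 182 reads (TPM 1.22) to 485 reads (TPM 4.87), a log2 ratio of 2.0 (1.75 to 2.25), and from 2.72% to 10.4% of the TPM of the cluster. Pcdhgb6 went from 23 reads (TPM 0.154) to 85 reads (TPM 0.857), a log2 ratio of 2.47 (1.80 to 3.21). Pcdhga10 (log2 ratio 0.07, -0.25 to 0.38) and Pcdhgb7 (0.14, -0.18 to 0.46) lie between them on the chromosome, so the higher genes were not a run of neighbours. Without Pcdhga11 and Pcdhgb6, the summed TPM of the other 20 genes was 43.5 in E14 and 41.2 in TA/WT cells (log2 ratio -0.08), and their ratios ran from -0.83 (Pcdhga2, 305 and 115 reads, TPM 2.13 and 1.20) to 0.49 (Pcdhgb8, 259 and 244 reads, TPM 1.78 and 2.50).

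The remaining Pcdhg genes were all within 2-fold. At the upstream end of the cluster, Pcdhga1 had 388 and 261 reads (TPM 2.71 and 2.72), Pcdhga3 had 148 and 124 (TPM 1.001 and 1.25), Pcdhgb1 had 89 and 52 (TPM 0.622 and 0.539), Pcdhga4 had 188 and 161 (TPM 1.31 and 1.68) and Pcdhgb2 had 119 and 112 (TPM 0.815 and 1.14). Neighbouring genes there lay on either side of 0, with log2 ratios of -0.21 for Pcdhgb1 and 0.35 and 0.48 for the pair that follows it. In the middle, Pcdhga5 had 164 and 74 reads (TPM 1.14 and 0.766), Pcdhga6 had 88 and 44 (TPM 0.609 and 0.449), Pcdhga7 had 168 and 153 (TPM 1.14 and 1.55), Pcdhgb4 had 152 and 111 (TPM 1.08 and 1.16) and Pcdhga8 had 34 and 29 (TPM 0.228 and 0.285). Pcdhga5 and Pcdhga6 lay at -0.57 and -0.44 and Pcdhga7 at 0.44. Further downstream, Pcdhgb5 had 75 and 37 reads (TPM 0.524 and 0.379), Pcdhga9 had 286 and 186 (TPM 1.92 and 1.86), Pcdhga10 had 203 and 143 (TPM 1.42 and 1.49) and Pcdhgb7 had 196 and 145 (TPM 1.37 and 1.52).

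**Figure D3:**
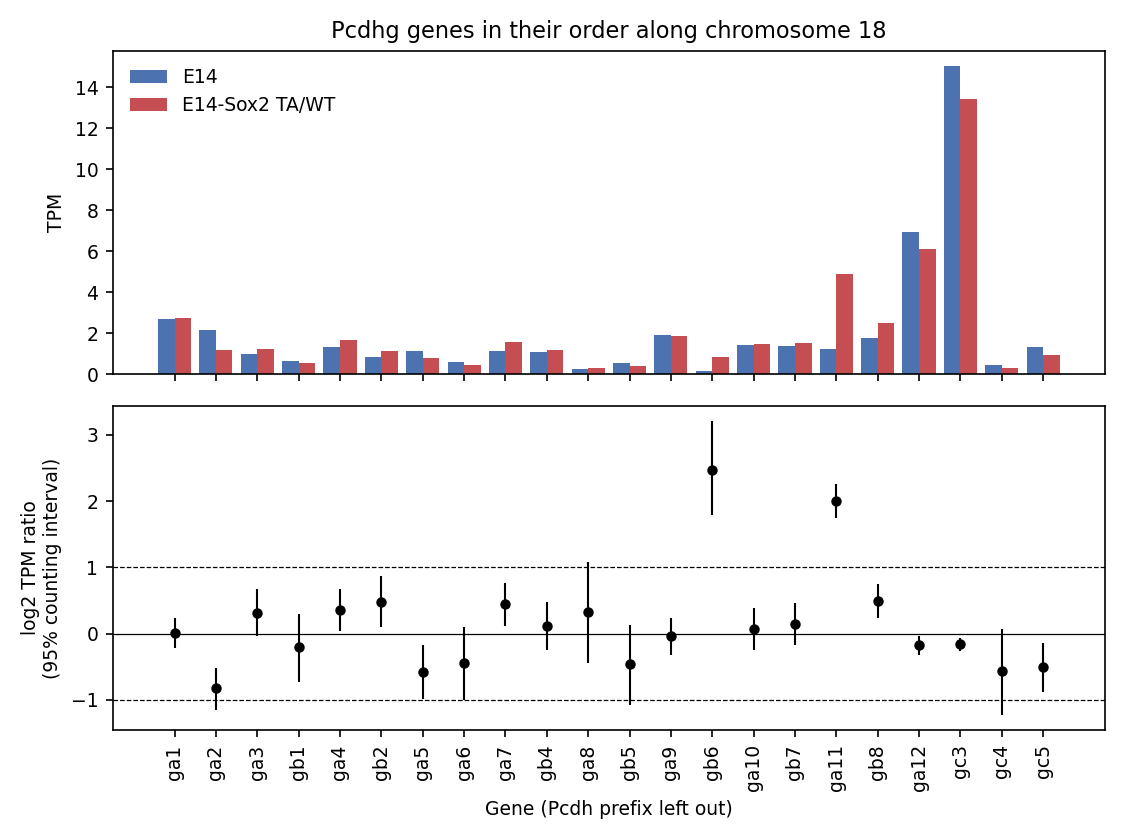
TPM of the 22 Pcdhg genes in both libraries (top, bars) and log2 TPM ratio, E14-Sox2 TA/WT over E14, with 95% counting intervals (bottom), ordered by position on chromosome 18. Pcdhgc3 and Pcdhga12 are highest in both libraries, and only Pcdhgb6 and Pcdhga11 lie above the upper dashed line at 2-fold.

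Reads in the Pcdha cluster were few. They were found for 4 of 14 genes in E14 and for 4 in TA/WT cells, and 1 gene, Pcdhac2, had reads in both, with 34 (TPM 0.199) and 9 (TPM 0.0699), a log2 ratio of -1.51 (-2.75 to -0.42). In E14, Pcdha6 had 13 reads, Pcdha5 had 9 and Pcdha2 had 5, and none of the 3 had a read in TA/WT cells. There, Pcdha12 had 50 reads (TPM 0.446), Pcdha1 had 5 and Pcdha11 had 2, against 0 reads each in E14. Thus 6 of the 7 genes with reads had them in 1 library alone, beside 41.3% of all 3968 genes with 2 to 50 reads in the library where they had more, and the 5 genes with 2 to 13 reads are too low for a comparison. Of all 1250 genes with 20 to 50 reads in the library where they had more, 1.28% had no read in E14, as Pcdha12 did. Those of the 1250 with more reads in E14 cannot do so, and the bound of 50 is the count of Pcdha12 itself. The share is thus a description alone. For Pcdha12 a floor of 3 reads in E14 gives a 24.9-fold difference, and the counting interval a log2 ratio of at least 4.28. The log2 ratio of the summed TPM was 0.69 (0.17 to 1.22), and it turned to -1.53 without Pcdha12, so the sum rests on that gene. The uncertain placement of shared-exon reads applies to each of these values.

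The Pcdhb genes were at or near the floor of detection, which is 3 reads. Of 22 genes, 9 had no read, 5 had reads in E14 and 11 in TA/WT cells. The highest were Pcdhb22 (12 and 9 reads, TPM 0.116 and 0.134) and Pcdhb14 (10 and 0 reads, a log2 ratio of -0.59 or lower by the counting interval). For the other Pcdhb genes no difference was detectable at this depth, since their counting intervals all included 0. The log2 ratio of the summed TPM was 0.90 (0.17 to 1.63).

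Genes that regulate the clusters were described next. Ctcf and cohesin loop the cluster enhancers to the chosen promoters, DNA methylation closes the promoters that are not chosen, and Smchd1 and the histone methyltransferases help to keep the clusters silent. Of the listed genes 16 had at least 20 reads, with a median log2 ratio of 0.50, beside 0.0049 over all 15105 genes past the filter. Of these 15105 genes, 6.88% were more than 2-fold higher and 12.9% were lower. Of the 16 listed genes, 1 was higher and none was lower. The higher gene was Dnmt3b, a de novo DNA methyltransferase (TPM 67.5 and 150, log2 ratio 1.16), which is also on the study's own list of targets chosen on these samples, so its direction is not independent evidence. Ctcf had a TPM of 87.8 and 141 (0.69), Smchd1 30.6 and 43.7 (0.51), and the cohesin subunit gene Rad21 276 and 269 (-0.04). The median fell to 0.10 with the GC and length trend removed, where Smchd1 came to 0.04.

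The partners of classical cadherins link them to actin or keep them at the membrane. Over all 15105 genes past the 20-read filter, 6.88% were more than 2-fold higher and 12.9% were lower, and the median log2 ratio was 0.0049. Of 11 catenin and junction genes past it, 2 were more than 2-fold higher and 1 was lower, and the median log2 ratio was 0.68. Ctnnd1, which encodes the p120-catenin that keeps classical cadherins at the membrane, had the highest ratio, with 6722 and 11506 reads (TPM 41.7 and 106, log2 ratio 1.34, 1.30 to 1.39). Mllt4, which encodes afadin, had a TPM of 52.1 and 107 (1.04, 1.0 to 1.07), and was at 0.89 with FPKM and 0.64 with the trend removed. Arvcf, a relative of p120-catenin, was lower, at a TPM of 52.4 and 25.8 (-1.02, -1.09 to -0.95, and -0.96 with the trend removed). Ctnna1, the gene for alpha-E-catenin, had a TPM of 297 and 406 (0.45), and Ctnnb1, the gene for beta-catenin, 416 and 471 (0.18). Both were within 2-fold.

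Of the 5 genes for proteases that cut cadherins, none was more than 2-fold different, from Psen2 (log2 ratio -0.25) to Adam17 (0.33), and their median of 0.11 changed sign with FPKM (-0.03). Over all 15105 genes with at least 20 reads, 6.88% were more than 2-fold higher and 12.9% were lower. Among 16 other genes of the cadherin superfamily with at least 20 reads, 5 were more than 2-fold higher and 3 were lower. The higher genes were the giant cadherins Fat1 (11644 and 27412 reads, TPM 25.3 and 88.8, log2 ratio 1.81), Fat3 (3 and 45 reads, 5.07, 3.43 to 7.40) and Dchs1 (90 and 193 reads, 1.68), the planar polarity gene Celsr3 (1.38) and the desmosomal gene Dsc2 (1.41). The ratio of Fat3 rests on 3 reads in E14 and was 4.44 with TMM. The lower genes were Ret (224 and 55 reads, log2 ratio -1.54), Cdhr2 (54 and 8 reads, -2.25) and Cdhr5 (41 and 0 reads).

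**Figure D4:**
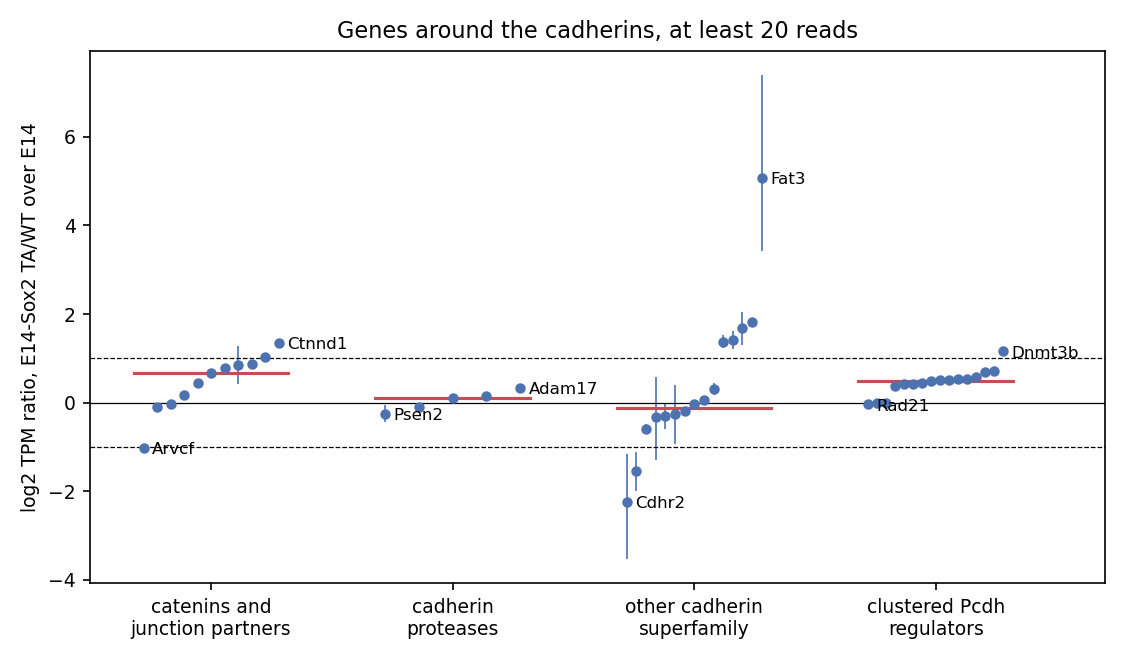
Log2 TPM ratio (E14-Sox2 TA/WT over E14) of genes with at least 20 reads in 4 lists around the cadherins, with 95% counting intervals, the list median (horizontal bar) and 2-fold (dashed lines). The lowest and highest gene of each list are named, and Cdhr5, with 0 reads in 1 library, is not drawn. Fat3, Ctnnd1 and Dnmt3b stand above 2-fold, Cdhr2 and Arvcf stand below it, and the proteases lie close to 0.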

How the data were processed

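Polyadenylated RNA of 1 E14 library and 1 library of E14 cells with the Sox2 T258A change was sequenced on an Illumina NovaSeq. The authors deposited 1 mm10 gene table with whole-number read counts, FPKM and TPM. The submitters' processing notes name bcl2fastq 2.20.0, Trimmomatic, HISAT2 2.1.0 and StringTie 2.1.3b, and the builds mm10 and hg19. Their roles, whether the counts are tallies of reads or were derived from estimated coverage, the strand setting and the treatment of multi-mapped reads are not given in the sources used here. Within a library, deposited TPM was a constant multiple of FPKM, to within 1%, at the members with reads (59 in E14 and 66 in TA/WT cells).

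Ratios of TPM (E14-Sox2 TA/WT over E14) were taken without a pseudocount. Genes with at least 20 reads in a library were described, and changes over 2-fold were counted. With 1 library per genotype no test was run. The 95% intervals are exact Clopper-Pearson intervals of the read counts, placed on the TPM scale. They take the counts as tallies of reads, and they and the floor of 3 reads (0.0498 CPM in E14 and 0.0673 CPM in TA/WT cells) cover counting error only. The interval code was tested on simulated counts.

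Every member could be named, with values given for those with at least 20 reads or a TPM of at least 1. Sox2 and any gene of the other lists could be named. The members, lists and thresholds were chosen with earlier results of these data known. Alternatives were other thresholds, filters, a pseudocount of 1, TMM (edgeR 4.0.16) or median-of-ratios (DESeq2 1.42.0) scaling, FPKM, centring on the median, and removal of the dependence on transcript GC and length (median ratio in each of 20 bins, GENCODE M21). Gene positions were from RefSeq, GRCm38.p6, where all 93 members matched. Promoters were from the same source, and those of members on chromosome 18 were left out.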

Additional observations from a re-analysis of the deposited data

How the results depend on the processing

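The count of higher members (12) stayed between 8 and 14 under the scalings, fold thresholds of 1.5 and 3, the interval rule, centring, trend removal and filters at 10 and 100 reads. It was 5 with a pseudocount of 1, which by construction shrinks low genes, and 28 with every member that had a read. The settings chosen after seeing the data gave 9 higher members with 20 to fewer than 500 reads, 9 without Pcdha and Pcdhg, and 7 with 20 reads in both libraries.

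The count of lower members (2) was 0 with the pseudocount, at 3-fold and by the interval rule, 4 at 1.5-fold and at 10 reads, 1 at 100 reads, 10 with any read, 1 without Pcdha and Pcdhg, 1 with 20 reads in both libraries, and 3 with FPKM, where Cdh23 joined. On the study's filter, the 3 higher members became 2 (without Cdh1) with TMM, size factors, FPKM, centring, trend removal and the interval rule, 1 at 3-fold, 4 at 1.5-fold and 6 at a TPM of at least 1, where 1 was lower.

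The log2 ratio of Cdh1 (1.01) was 0.97 with TMM, 0.99 with size factors, 0.87 with FPKM, 0.98 when centred and 0.90 with the trend removed. The Pcdhg sum (0.07) was -0.078 with FPKM, -0.0035 with the trend removed and 0.17 without Pcdhgc3, and the Pcdha sum (0.69) was -1.53 without Pcdha12. The Pcdhb and Pcdha medians past 20 reads could not be given. Depth limits every gene under 20 reads, and no paired analysis was possible because each genotype had 1 library.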

Other observations

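The transcript length implied by the deposited reads and FPKM was the same within 1% in both libraries for Cdh1 (4501 and 4500 bases) and Cdh9 (2947 and 2952 bases). For Pcdh7 it was 13364 bases in E14, from 3 reads, and 8324 bases in TA/WT cells, from 100 reads. The log2 ratio of Pcdh7 was accordingly 5.59 with TMM-scaled reads, beside 6.32 with TPM.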
